A study of Schizosaccharomyces pombe with 70 samples.

Results

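The second hour of hydroxyurea treatment in wild-type fission yeast (Schizosaccharomyces pombe) was described by comparing cultures treated for 120 min with cultures treated for 60 min. The members are the 6 arrays titled WT at these times, 3 a side, of 70 arrays in all. The series followed asynchronous mid log phase cultures, grown at 30 degrees, of wild type, rad3, cds1, chk1 and rad3sep1 strains through 0, 10, 30, 60 and 120 min in 8 mM hydroxyurea, with 3 biological repeats a time (2 for rad3sep1). Each array compared the Cy5-labelled cDNA of a culture with Cy3-labelled cDNA of untreated wild type, and each value is the log2 ratio of these channels averaged over the 2 probes of a gene, so that 1 unit is a 2-fold difference. The labels name the mutants only by gene and give wild type no further genotype. An untreated culture kept for 120 min was not analysed here, so time in hydroxyurea and time in culture cannot be told apart.

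Hydroxyurea inhibits ribonucleotide reductase, the enzyme that makes deoxyribonucleotides, and so stalls replication forks. In fission yeast the kinase Rad3 senses the stalled forks and activates the effector kinase Cds1, and cells hold back mitosis until replication is done; Chk1 is the kinase that acts after DNA damage. Transcription follows the cell cycle in waves: MBF drives genes of G1 and S phase, forkhead factors drive genes of mitosis and cytokinesis, and a later wave holds genes whose products break down the septum between daughter cells.

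Replicates 2 and 3 of wild type at 60 min stood apart from the other pairs. What set these arrays apart on 1 probe of a gene was not seen on its other probe (r = 0.0108 over genes, against 0.150 and 0.155 for the other pairs at 60 min and 0.264 to 0.423 for the pairs at 120 min), and they were averaged into 1 sample. The comparison therefore rests on 2 samples at 60 min and 3 at 120 min, 5 of the 61 samples of the series. The 6 arrays held 9845 to 9854 values each, with medians of -0.05 to 0.02, and the probes of a gene correlated at r = 0.682 to 0.849 within an array. The spread of the log2 ratios was wider at 120 min (SD 0.467 to 0.488 per array) than at 60 min (0.389 to 0.419). The rad3 transcript lay between -0.23 and 0.04 in the 5 wild-type samples and between -3.13 and -1.33 in the 14 samples of the rad3 strain. The transcripts of cds1, chk1 and sep1 were likewise lower in every sample of their own mutants than in these wild-type samples.

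Of 4921 genes tested, 60 rose and 75 fell between 60 and 120 min (1.22% and 1.52%, 2.74% together; limma's moderated test, Benjamini-Hochberg adjusted p under 0.05 over all genes). The largest falls were about 4-fold, in SPAC23A1.01c, SPOM_SPCC306.11, eng1, adg1 and exg1. The largest rise was in the non-coding RNA nc-pho1, followed by SPOM_SPBC1271.08C and lsd90. A change of at least 2-fold was reached by 15 of the genes that fell and by 7 of those that rose. The 120 min samples lay entirely above the 60 min samples for 729 genes (14.8%) and entirely below them for 827 (16.8%), and all 135 called genes are among these. The median change over all genes was -0.01. With 2 samples at 60 min, calls depended on single samples: leaving out 1 sample at a time gave 22 to 66 rises and 29 to 67 falls, the fewest without the averaged sample of replicates 2 and 3 at 60 min. Without 60 min replicate 1 there were 25 rises and 53 falls, and without 120 min replicate 2 there were 29 rises and 53 falls. Of the 60 rises 9 and of the 75 falls 23 passed with every sample left out in turn. Quantile normalization, which gives all arrays the same spread, left 4 rises and 26 falls, all among those called. The 4 rises were nc-pho1, SPOM_SPBC1271.08C, lsd90 and SPOM_SPAC11D3.01C, and every other rise named here lost its call in that setting. Among the falls named here, mid2, cut1, klp5, chs2, glt1, hmt2, rid1, spp27 and rpl3402 lost theirs.

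**Figure D1:**
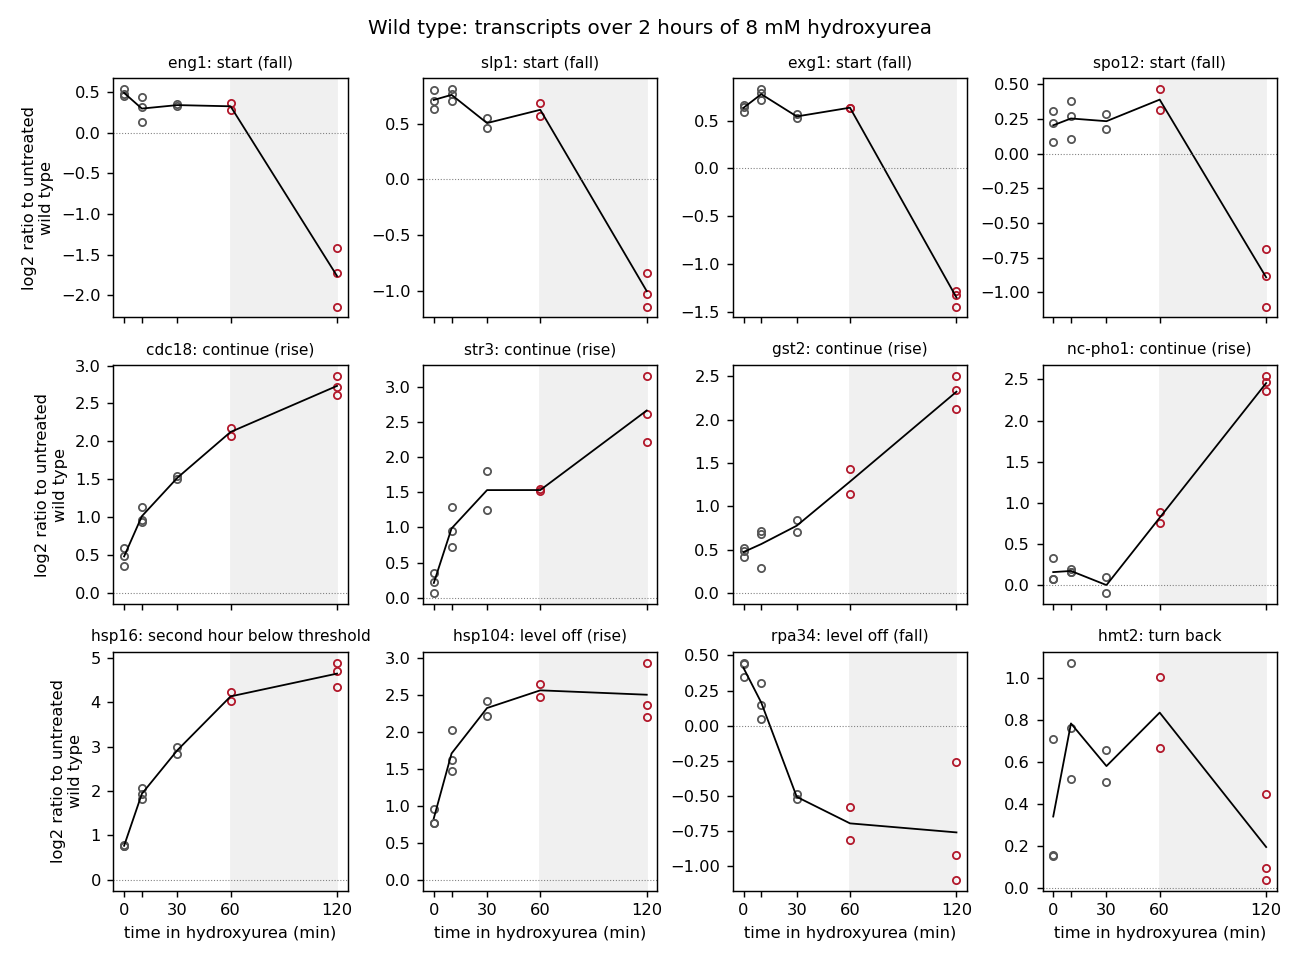
Log2 ratio to untreated wild type (vertical axis) against time in hydroxyurea (horizontal axis, minutes) for 12 genes in wild type; open circles are samples, lines join the time means and the shaded band is the second hour. The upper row (eng1, slp1, exg1, spo12) is level to 60 min and falls to between -0.69 and -2.14 at 120 min, the middle row goes on rising, and the lower row shows hsp16, 2 genes that level off and hmt2, which turned back.

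The gene lists here and below were chosen with earlier results of these data known, so counts within them are descriptions. All 7 measured genes of septum breakdown fell in the second hour, against 1.52% of all genes. The 7 had a median of -1.39, and 6 passed after quantile normalization and 4 from the second probe alone. In this list eng1, the endo-1,3-beta-glucanase that digests the primary septum, was at 0.28 and 0.37 in the 60 min samples and at -1.42, -2.14 and -1.73 in the 120 min samples. The groups lie far apart, and the fall of eng1 was -2.09 ± 0.15 (SE, adjusted p = 1.64e-14). The transcript of adg1, a cell surface glycoprotein gene, went from 0.18 and 0.46 to -1.80, -1.97 and -1.52, a change of -2.08 ± 0.18 (adjusted p = 2.63e-12). The gene adg3 went from -0.09 and 0.15 to -1.56, -1.32 and -1.46 (-1.48 ± 0.18, adjusted p = 1.28e-07). All 3 were lower in each 120 min sample than in either 60 min sample, as was every gene called as a fall. The septation gene uds1 went from 0.10 and 0.04 to -1.43, -1.37 and -1.17 (-1.39 ± 0.13, adjusted p = 1.23e-11). Since cultures were asynchronous, fewer cells at a stage and less RNA per cell cannot be told apart in these values.

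The remaining septum genes are outside the naming rule and were named after their values were seen. They were agn1, the endo-1,3-alpha-glucanase of the septum (-1.07 ± 0.15), cfh4, a regulator of chitin synthase (-0.90 ± 0.13), and mid2, an anillin-like protein of the septin ring (-0.56 ± 0.12). Of the 7 genes only mid2 lost its call when a sample was left out, with an adjusted p of 0.0722 without the averaged 60 min sample. The list's median level per sample was 0.18 and 0.30 at 60 min and -1.42, -1.37 and -1.17 at 120 min. At 0 min it had been 0.28 to 0.33, so the list changed little in the first hour, in which 1 of its 7 genes fell.

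Of 18 measured genes of mitosis and cytokinesis 5 fell and none rose, against 1.52% and 1.22% of all genes. The list's median was -0.17. The largest change was in slp1, the Cdc20-type activator of the anaphase-promoting complex, which was at 0.57 and 0.68 at 60 min and at -0.84, -1.03 and -1.14 at 120 min. All 120 min samples of slp1 lay more than 1 unit below both 60 min samples (-1.63 ± 0.13, adjusted p = 2.09e-13). The mitotic exit gene spo12 went from 0.46 and 0.31 to -0.88, -0.69 and -1.10 (-1.28 ± 0.15, adjusted p = 4.13e-08). For cdc15, the F-BAR scaffold of the contractile ring, the values were 0.17 and 0.05, then -0.65, -0.65 and -0.64 (-0.76 ± 0.14, adjusted p = 0.00032). The separase gene cut1 fell by less, from -0.51 and -0.48 to -0.94, -1.03 and -1.17 (-0.55 ± 0.13, adjusted p = 0.00612), and without the averaged 60 min sample its adjusted p was 0.124. The kinesin-8 gene klp5 (-0.57 ± 0.14) was the fifth, and its adjusted p was 0.193 without that sample. The other 13 genes did not pass: the B-type cyclin cdc13 was at 0.06 ± 0.17 and the polo kinase plo1 at -0.14 ± 0.18, while cdc25, the phosphatase that triggers mitosis, was at 0.31 ± 0.19.

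Outside both lists, exg1 and gas1 were among the 12 largest falls; no list of cell wall genes was counted. The gene exg1, a glucan beta-glucosidase, was at 0.64 in both 60 min samples and at -1.33, -1.45 and -1.28 at 120 min (-1.99 ± 0.14, adjusted p = 1.61e-15). The glucanosyltransferase gene gas1 went from 0.44 and 0.39 to -0.58, -0.82 and -0.91 (-1.18 ± 0.18, adjusted p = 6.16e-06), and gas5, of the same family, from 0.55 and 0.59 to -0.31, -0.60 and -0.66 (-1.09 ± 0.12, adjusted p = 1.09e-08). In these 3 genes no sample of 1 time overlapped the other time, which held for every called gene. Named after their values were seen, pxl1 (a paxillin of the contractile ring, -0.84 ± 0.18) and chs2 (a chitin synthase homologue, -0.68 ± 0.17) also fell. The adjusted p rose to 0.467 for chs2 without the averaged 60 min sample and to 0.0686 for pxl1 without 60 min replicate 1.

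The largest fall of all was in SPAC23A1.01c, which was at 0.54 and 0.61 at 60 min and at -1.42, -1.55 and -1.68 at 120 min (-2.13 ± 0.13, adjusted p = 5.5e-17). The open reading frame SPOM_SPCC306.11 behaved alike, from 0.51 and 0.41 to -1.41, -1.80 and -1.76 (-2.12 ± 0.14, adjusted p = 4.48e-16). With cts2 (-1.65 ± 0.17) and pun1 (-1.10 ± 0.16) these complete the 12 largest falls. All 12 passed with every sample left out and after quantile normalization. Of the 4486 pairs of neighbouring measured genes, 131 held at least 1 gene that fell. In 2 pairs both genes fell, and 1 of these pairs was slp1 with eng1 on chromosome I.

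Of 20 genes of G1 and S phase under MBF 3 rose (against 1.22% of all genes), none fell and 17 did not pass. The list's median was 0.24. After quantile normalization the median was 0.04 and none passed. The gene cdc18, whose product loads the replicative helicase at origins, was at 2.18 and 2.07 at 60 min and at 2.72, 2.86 and 2.62 at 120 min (0.61 ± 0.15, adjusted p = 0.0141). The S-phase cyclin gene cig2 went from 1.44 and 1.52 to 1.89, 2.20 and 1.96 (0.54 ± 0.14, adjusted p = 0.0208). For cdt2, the adaptor of the ubiquitin ligase that lifts inhibition of ribonucleotide reductase, the values were 1.70 and 1.91, then 2.12, 2.46 and 2.33 (0.51 ± 0.11, adjusted p = 0.00503), but quantile normalization turned its change to -0.04. These 3 transcripts were already high at 60 min, and no 120 min sample of any of them fell among the 60 min samples, as in every called gene. Each of the 3 calls was lost without 60 min replicate 1, at adjusted p = 0.209 for cdt2 and 0.219 for cig2, and cdc18 reached 0.265 without the averaged 60 min sample. In the first hour 10 of the 20 genes had risen (4.88% of all genes rose then), with a median of 0.47, and the list's median change over both hours was 0.61. The gene of the ribonucleotide reductase large subunit, cdc22, was among those that levelled off, at 2.09 and 1.98 and then 2.40, 2.45 and 2.04 (0.26 ± 0.12, adjusted p = 0.33).

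Of 9 core histone genes 2 rose (against 1.22% of all genes) and none fell. The list's median was 0.36 (0.13 after quantile normalization, with none called). The H2B gene htb1 went from 0.35 and 0.72 to 1.08, 1.05 and 1.24 (0.59 ± 0.13, adjusted p = 0.00503), and an H4 gene, hhf3, from 0.64 and 0.57 to 1.35, 1.10 and 1.13 (0.59 ± 0.16, adjusted p = 0.0264). Histone H3 and H4 genes are near-identical copies, so single values such as that of hhf3 are uncertain. The call of htb1 was lost without 60 min replicate 1 (adjusted p = 0.326) and that of hhf3 without the averaged 60 min sample (0.301). No gene passed in either direction among 30 replication factors (median -0.02), 16 DNA repair genes (median -0.04) or 15 checkpoint genes (median 0.10). The median of all genes was -0.01, and 647 genes had an unadjusted p under 0.05.

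The largest rise was in nc-pho1, annotated as a non-coding RNA. It was at 0.16, 0.17 and 0.00 on average at 0, 10 and 30 min, at 0.75 and 0.88 at 60 min and at 2.47, 2.54 and 2.36 at 120 min. The 120 min samples of nc-pho1 lie close together and more than 1 unit above those at 60 min (1.64 ± 0.15, adjusted p = 1.26e-11). The iron uptake genes frp1 (ferric reductase) and str3 (a heme transporter) were the 2 of 10 in their list that rose. Of all genes 1.22% rose and 1.52% fell. The median of the iron uptake list was 0.28 (0.16 after quantile normalization, with none called). The values of str3 were 1.55 and 1.51 at 60 min and 2.62, 3.15 and 2.21 at 120 min (1.13 ± 0.18, adjusted p = 2.21e-05). Those of frp1 were 2.07 and 1.58, then 3.11, 3.55 and 2.36, with 120 min replicate 3 nearest to the 60 min samples (1.18 ± 0.23, adjusted p = 0.000777, but 0.14 without the averaged 60 min sample). Among 12 genes of iron-using proteins 1 fell, the glutamate synthase gene glt1, from -0.76 and -0.40 to -1.42, -1.41 and -1.25 (-0.78 ± 0.15, adjusted p = 0.000585, but 0.145 without the averaged 60 min sample).

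In the core environmental stress list 3 of 16 genes rose (against 1.22% of all genes) and none fell, with a median of 0.25. After quantile normalization its median was 0.02 and none passed. The glutathione S-transferase gene gst2 went from 1.14 and 1.43 to 2.34, 2.50 and 2.12 (1.03 ± 0.12, adjusted p = 2.1e-08). The neutral trehalase gene ntp1 went from 1.55 and 1.21 to 2.03, 1.98 and 1.72 (0.54 ± 0.15, adjusted p = 0.031), and the metallothionein gene zym1 from 1.04 and 0.50 to 1.81, 1.83 and 1.15 (0.83 ± 0.24, adjusted p = 0.05). While gst2 kept its call with every sample left out, the adjusted p reached 0.597 for ntp1 and 0.65 for zym1 without the averaged 60 min sample. A rise was also seen in lsd90, from 0.55 and 0.72 to 1.82, 2.15 and 1.71 (1.26 ± 0.17, adjusted p = 9.36e-07). Of 29 proteasome genes 2 rose (against 1.22% of all genes), pre4 (0.47 ± 0.11) and pup1 (0.47 ± 0.14). Both proteasome calls were lost with a sample left out (adjusted p up to 0.378 and 0.374).

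Several of the largest rises belonged to genes without a name and lay next to each other. Of the 4486 neighbouring pairs 104 held at least 1 gene that rose, and 5 held genes that both rose. The pair SPOM_SPBC1271.08C and SPOM_SPBC1271.07C rose by 1.39 ± 0.19 and 0.93 ± 0.21, the former from 0.16 and 0.19 to 1.40, 2.00 and 1.28. The pair SPOM_SPAC27D7.11C and SPOM_SPAC27D7.09C rose by 0.99 ± 0.16 and 0.88 ± 0.21. The other 3 pairs were shu1 (a heme uptake protein) with str3, osr2 with gst2, and SPOM_SPAC977.14C with SPOM_SPAC977.15. A single gene, SPOM_SPAC11D3.01C, rose from below the reference, at -0.25 and -0.46, to 0.50, 0.80 and 0.62 (0.99 ± 0.16, adjusted p = 1.77e-05). The rest of the 12 largest rises were SPOM_SPBC215.11C (1.11 ± 0.29) and ssd2 (0.96 ± 0.24), whose 120 min samples spread from 0.31 to 1.44. SPOM_SPBC215.11C lost its call in 4 of the 5 fits that left out a sample (adjusted p up to 0.266, without 60 min replicate 1) and ssd2 in 3 of 5 (up to 0.301, without the averaged 60 min sample). Of these unnamed genes SPOM_SPBC1271.08C, SPOM_SPAC27D7.11C and SPOM_SPAC11D3.01C passed with every sample left out in turn; SPOM_SPBC1271.07C had an adjusted p of 0.112 without the averaged 60 min sample and SPOM_SPAC27D7.09C 0.421 without 60 min replicate 1.

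**Figure D2:**
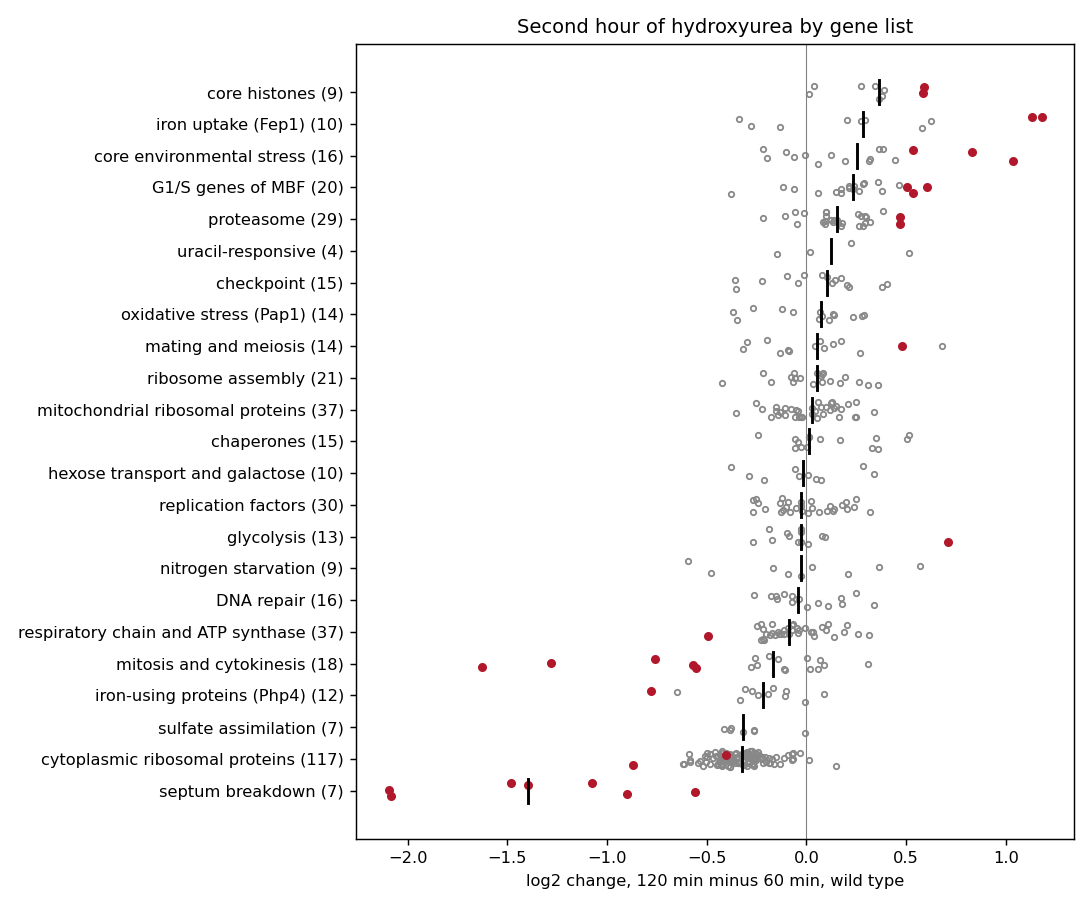
Change in log2 ratio from 60 to 120 min in wild type (horizontal axis) for every measured gene of 23 lists, ordered by list median (black bars), with the number of genes in brackets; filled points passed the adjusted threshold. Septum breakdown lies at the bottom with all 7 genes filled, and cytoplasmic ribosomal proteins lie almost wholly below 0 with 2 filled points.

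Of 117 genes of cytoplasmic ribosomal proteins 2 fell and none rose (1.71%, against 1.52% of all genes that fell). The change was below 0 in 115 of the 117, against 2549 of all 4921 genes (51.8%), with a median of -0.32. The 2 that passed were rpl1603 (-0.87 ± 0.14, adjusted p = 5.27e-05) and rpl3402 (-0.41 ± 0.10, adjusted p = 0.019). Ribosomal protein genes are often near-identical pairs, so single values are uncertain, and both calls were lost without the averaged 60 min sample (adjusted p = 0.0605 and 0.535). The list's median level was 0.60 and 0.55 in the 60 min samples and 0.42, 0.16 and 0.18 in the 120 min samples. The times do not overlap, but the 0 min samples, at 0.31 to 0.54, span part of the 120 min range. Genes of ribosome assembly did not follow: none of 21 passed and the median was 0.05, after 16 had fallen in the first hour (4.84% of all genes fell then) with a median of -0.62. This list was chosen with earlier results of these data known, so its first-hour count is a description and not a test.

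In the first hour 240 genes had risen and 238 had fallen (9.71% together), and over both hours 641 rose and 594 fell (13.0% and 12.1%, 25.1% together). A gene was said to continue where it was called in both hours with the same sign, to start where it was called in the second hour only and had moved by less than 0.3 in the first, to level off where it was called in the first hour and over both hours and moved by less than 0.3 in the second, and to turn back where both hours were called with opposite signs. Since the 60 min samples enter both hours with opposite signs, these counts are a description. Of the 60 rises 21 continued and 24 started (0.427% and 0.488% of all genes). Of the 75 falls 3 continued (uds1, rid1 and spp27) and 65 started (0.061% and 1.32%). The second-hour call of spp27 was lost with any sample left out, with either probe alone and after median centring or quantile normalization. That of rid1 was lost without the averaged 60 min sample, without 120 min replicate 1 or 2, with either probe alone and after quantile normalization. Both were also lost with only wild type in the fit. The remaining 15 rises and 6 falls had moved by 0.3 or more in the first hour without passing. A further 151 genes levelled off after a rise and 167 after a fall (3.07% and 3.39%). These 318 rest on an estimate under 0.3, and their number was 66 without the averaged 60 min sample, 137 without 0 min replicate 2 and 148 without 60 min replicate 1. The genes that started to fall had median levels of 0.16, 0.16, 0.20 and 0.12 at 0, 10, 30 and 60 min and of -0.54 at 120 min. Those that continued to rise went from 0.25 to 0.57, 0.78, 1.12 and 1.91.

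Several genes with large first-hour rises levelled off. The disaggregase gene hsp104 was at 2.47 and 2.66 at 60 min and at 2.37, 2.94 and 2.21 at 120 min, so that the times overlap (-0.06 ± 0.25), after a first-hour rise of 1.73 ± 0.25. The uracil-responsive gene urg2 was at 1.47 and 1.85, then at 1.71, 2.44 and 1.50 (0.22 ± 0.21 after 1.80 ± 0.21), and the histone gene activator ams2 was at 1.72 and 1.99, then at 2.01, 2.21 and 1.79 (0.15 ± 0.15 after 1.46 ± 0.15). On the falling side, rpa34, a subunit of RNA polymerase I, was at -0.81 and -0.58 and then at -0.92, -1.10 and -0.26 (-0.06 ± 0.27 after -1.10 ± 0.27). The 95% half-widths of these second-hour changes were 0.50 for hsp104, 0.42 for urg2, 0.30 for ams2 and 0.53 for rpa34. Smaller changes were not detectable. These widths are not adjusted over genes, so a change had to be larger still to be called. The small heat shock gene hsp16 had the largest first-hour rise, 3.36 ± 0.17. It was at 4.22 and 4.03 at 60 min and at 4.69, 4.89 and 4.35 at 120 min, without overlap, but did not pass (0.51 ± 0.17, adjusted p = 0.0925). Neither chaperones (none of 15, median 0.01) nor genes of oxidative stress under Pap1 (none of 14, median 0.08) had a called member in the second hour, and quantile normalization turned both medians, to -0.06 and -0.12.

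A single gene met the rule for turning back (0.0203%). The sulfide:quinone reductase gene hmt2 was at 0.34 on average at 0 min, at 1.00 and 0.66 at 60 min and at 0.45, 0.04 and 0.09 at 120 min. The fall was -0.64 ± 0.16 (adjusted p = 0.0169) after a rise of 0.50 (adjusted p = 0.0435). Its second-hour call was lost without 60 min replicate 1 and without 120 min replicate 2 or 3. It was also lost after quantile normalization, with the second probe alone and with only wild type in the fit. A rise at 30 min, which shares no sample with the second hour, was followed by a further rise in part: of 31 genes called higher at 30 min against 0 min (31 higher and 17 lower, 0.63% and 0.345% of all genes, 0.975% together, a comparison added after the data were seen) 7 rose in the second hour and none fell, with a median of 0.35. Of the 17 that were lower at 30 min none passed in either direction, with a median of 0.08. Among all genes 1.22% rose and 1.52% fell in the second hour.

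**Figure D3:**
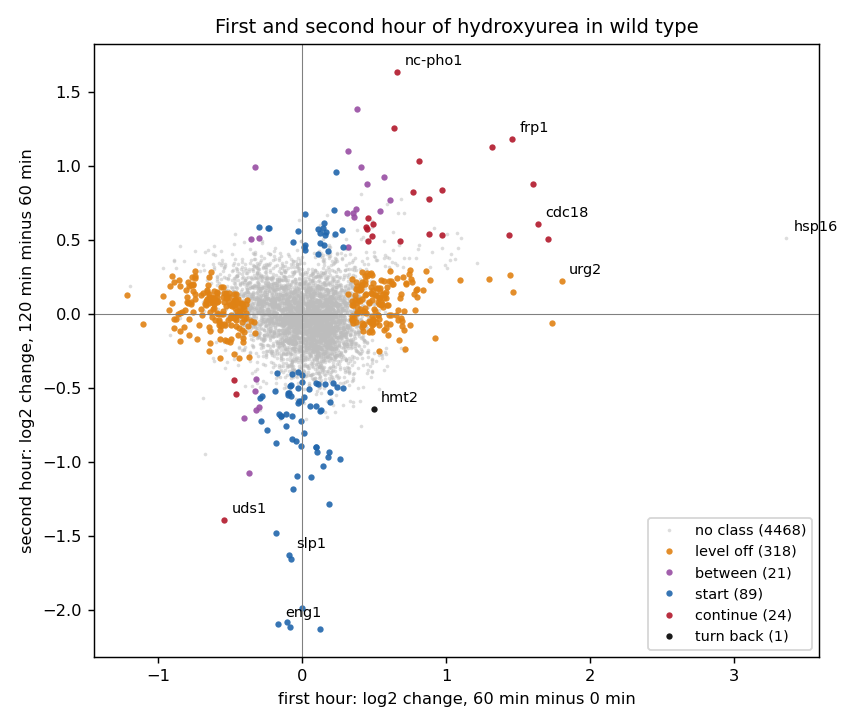
Change from 60 to 120 min (vertical axis, log2) against change from 0 to 60 min (horizontal axis, log2) in wild type for all 4921 genes, coloured by class with counts in the key; both axes share the 60 min samples. Genes that started to fall hang below the centre, hsp16 lies far to the right with a second-hour change of 0.51, and 1 gene, hmt2, turned back.

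The change itself differed between the hours in 23 genes (0.467%; contrast of the second minus the first hour, adjusted over all genes), 2 with a higher and 21 with a lower second hour (0.0406% and 0.427%). The largest was hsp16 (-2.85 ± 0.30, adjusted p = 4.45e-09), whose rise slowed. It was followed by SPAC23A1.01c (-2.25 ± 0.23), SPOM_SPCC306.11 (-2.03 ± 0.25), exg1 (-1.99 ± 0.24), adg1 (-1.98 ± 0.32) and eng1 (-1.93 ± 0.27), which were level in the first hour and fell in the second. Of the 21 genes 13 had started to fall and 5 had levelled off. The 2 with a higher second hour were SPOM_SPAC11D3.01C (1.32 ± 0.28) and fyv7 (1.25 ± 0.30), a ribosome assembly gene whose change was -0.89 in the first hour and 0.37 ± 0.17 in the second. The difference of fyv7 was lost in 7 of the 8 fits that left out a sample and with either probe alone, and that of SPOM_SPAC11D3.01C without either 60 min sample, after quantile normalization and from the first probe alone. Without the averaged 60 min sample 8 genes passed, and without 60 min replicate 1, 12 did.

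The second hour was compared with that of each single mutant, which shares no sample with wild type. In the chk1 strain 133 genes rose and 109 fell (2.7% and 2.21%, 4.92% together), in cds1 101 and 78 (2.05% and 1.59%, 3.64% together), and in rad3 83 and 31 (1.69% and 0.63%, 2.32% together). Of the 75 genes that fell in wild type, all 75 had a negative change in chk1, where 52 passed, and all 75 in cds1, where 38 passed. In rad3 44 of the 75 were negative, 10 fell and 12 rose. Their median was -0.65 in wild type, -0.57 in chk1, -0.48 in cds1 and -0.10 in rad3. The 75 genes were chosen by their change in wild type, which is also part of each difference from a mutant. The medians, and the counts of differences among the 75, therefore lean towards a larger change in wild type. The difference between wild type and rad3 passed in 28 of the 75 genes, with a lower change in wild type; of all genes 0.63% were lower and 0.142% higher, 0.772% together (38). The difference from cds1 passed in 3 of the 75; of all genes 0.203% were lower and as many higher, 0.406% together (20). No gene at all differed between wild type and chk1 in this fit (limma; 341 genes at an unadjusted p under 0.05).

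**Figure D4:**
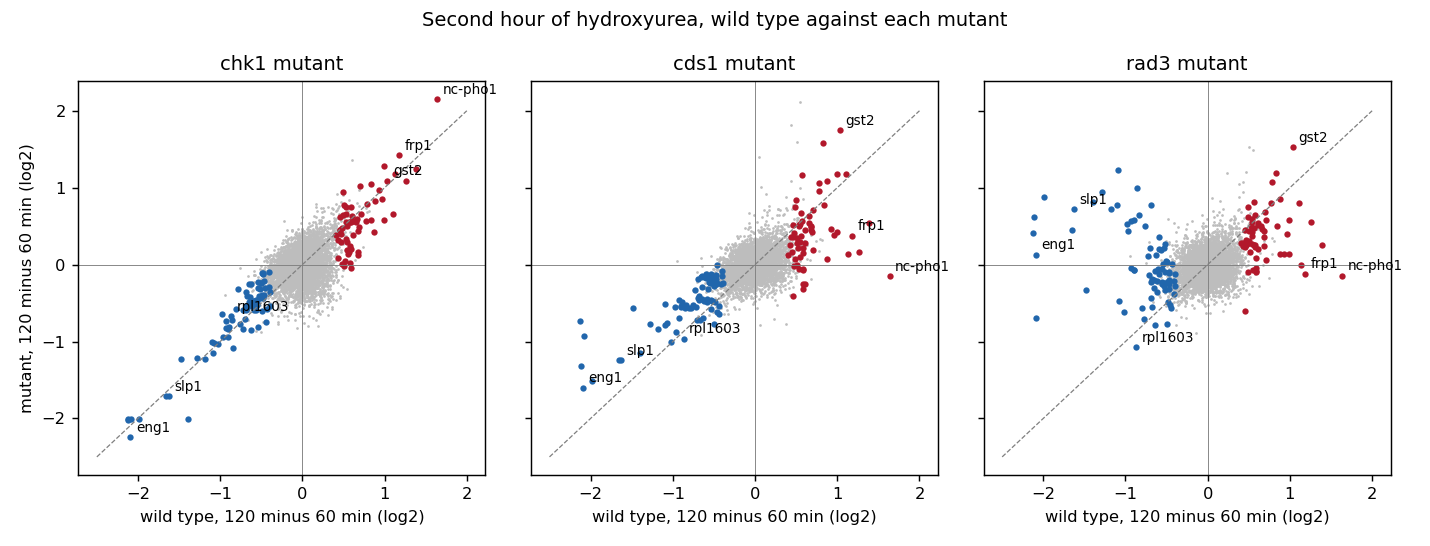
Change from 60 to 120 min in each mutant (vertical axes, log2) against that in wild type (horizontal axes, log2), for chk1, cds1 and rad3; red points rose and blue points fell in wild type, grey points are other genes, and the dashed line marks equal change. The blue points follow the line in chk1, lie nearer to 0 in cds1 and spread to both sides of 0 in rad3.

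The 6 largest differences from rad3 were in exg1, SPOM_SPCC306.11 (-2.74), SPAC23A1.01c (-2.54), slp1, gas5 and spo12, all lower in wild type. The change of exg1 was -1.99 ± 0.14 in wild type, -1.51 ± 0.12 in cds1 and 0.88 ± 0.14 in rad3, where it rose, and it differed by 0.02 ± 0.19 between wild type and chk1 (adjusted p = 0.989). Its difference from rad3 was -2.87 ± 0.19 (adjusted p = 2.37e-15). The change of slp1 was -1.63 in wild type and 0.72 ± 0.13 in rad3 (difference -2.35 ± 0.18, adjusted p = 1.09e-13), and that of spo12 was -1.28 and 0.94 ± 0.15 (difference -2.23 ± 0.22, adjusted p = 1.52e-10). For gas5 the changes were -1.09 and 1.23 ± 0.12 (difference -2.32 ± 0.17, adjusted p = 4.47e-14). In all 4 genes the direction was opposite in the strains, and both directions passed. Of the septum breakdown genes, eng1 was at 0.13 ± 0.15 in rad3, while adg1 fell there too, by 0.69 on the log2 scale (adjusted p = 0.0219), less than in wild type (difference -1.39 ± 0.25, adjusted p = 0.000389). From cds1, the clearest difference among the falls was in SPAC23A1.01c, at -2.13 ± 0.13 in wild type and -0.73 ± 0.12 in cds1 (difference -1.39 ± 0.17, adjusted p = 7.15e-07). For eng1 the difference between wild type and chk1 was 0.15, with a 95% half-width of 0.44, so a difference of that size was not detectable.

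The genes that rose were less uniform. Of the 60, 58 had a positive change in chk1 (36 passed), 50 in cds1 (24 passed) and 51 in rad3 (20 passed), with medians of 0.55, 0.38 and 0.34 beside 0.59 in wild type. The difference from rad3 passed in 5 of the 60, and that from cds1 in 7 that rose more in wild type and 1 that rose more in cds1. The 60 genes too were chosen by their change in wild type, so these medians and counts lean towards a larger rise there. The non-coding nc-pho1 rose by 1.64 in wild type and by 2.15 ± 0.15 in chk1 but was at -0.15 ± 0.13 in cds1 and at -0.14 ± 0.15 in rad3 (differences of 1.79 ± 0.20 and 1.78 ± 0.21, adjusted p = 6.33e-08 and 3.17e-08). The iron genes str3 and frp1 were at 0.00 ± 0.18 and -0.12 ± 0.23 in rad3, below wild type by 1.13 ± 0.25 (adjusted p = 0.00933) and 1.30 ± 0.32 (adjusted p = 0.0341). Both differences were lost without the averaged 60 min sample of wild type. The S-phase genes cdc18 and htb1 were at -0.25 ± 0.14 and -0.31 ± 0.12 in cds1, differences of 0.86 ± 0.20 (adjusted p = 0.034) and 0.90 ± 0.18 (adjusted p = 0.00357). That of cdc18 was lost in 7 of the 11 fits that left out a sample (adjusted p up to 0.407), and that of htb1 without 60 min replicate 1 of wild type (0.158). In rad3 cdc18 rose by 0.54 ± 0.15 (difference from wild type 0.06 ± 0.21, adjusted p = 0.995), while htb1 was at -0.09 ± 0.13. The stress gene gst2 rose in all 4 strains, by 1.03 ± 0.12 in wild type, 1.09 in chk1, 1.75 in cds1 and 1.53 in rad3.

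**Figure D5:**
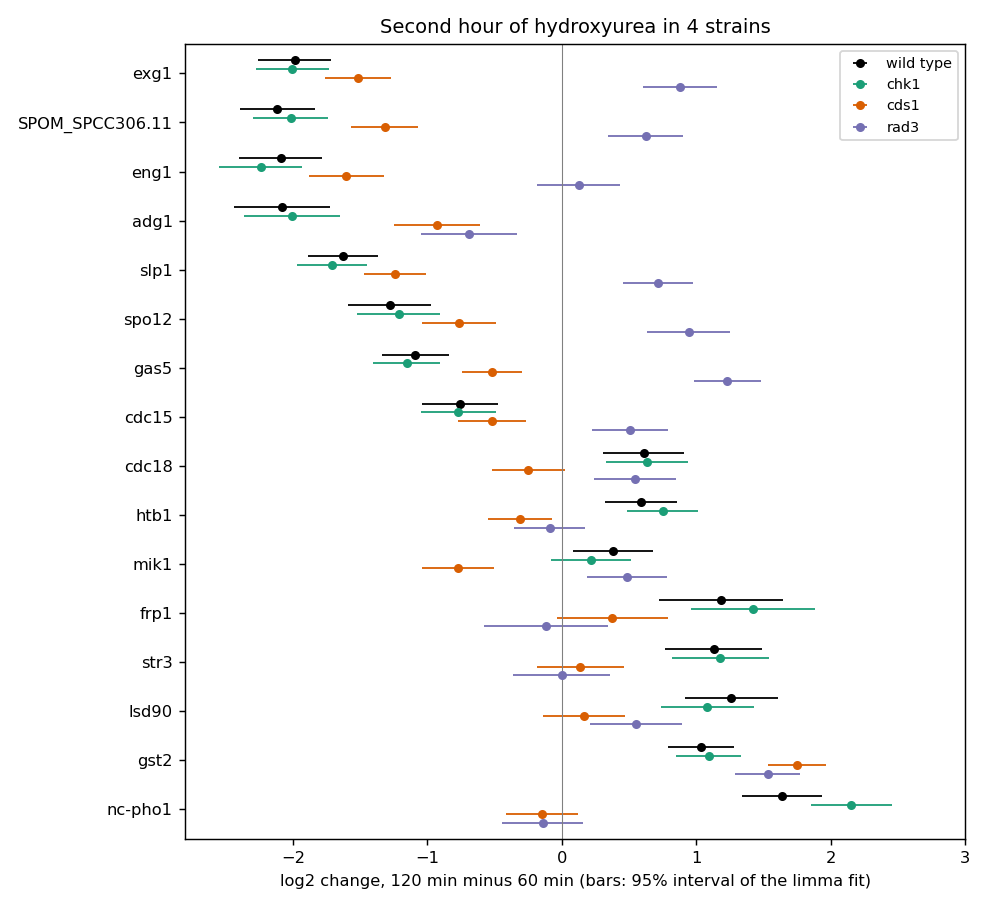
Change from 60 to 120 min (horizontal axis, log2) of 16 genes in wild type, chk1, cds1 and rad3; points are fitted changes and bars their 95% intervals. For exg1, slp1, spo12, gas5 and cdc15 the rad3 points lie above 0 and the other 3 strains below it, and nc-pho1 lies near 0 in cds1 and rad3 and above 1.5 in wild type and chk1.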

How the data were processed

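The authors deposited log2 ratios of Cy5 (sample) to Cy3 (untreated wild type), per the labels; how they were normalized is unknown from those labels, and no scaling was added. Signal over background is not part of these values, so precision rests on the number of arrays. The 2 probes of a gene were averaged, and array pairs of a group whose difference did not repeat between probes (r under 0.05) were averaged too, in 9 of 65 pairs, which gave 61 samples in 25 groups. Tests used the 4921 of 4929 genes measured on 2 or more arrays in each group. Names come from the platform annotation (4816 features with 1 symbol, 113 without) and neighbours from a RefSeq gene table; near-identical gene copies cannot be told apart. limma 3.58.1 (R 4.3.3) fitted all groups together, with moderated tests adjusted by the Benjamini-Hochberg method. The code was run on simulated data with planted changes and independent noise. Such data cannot show how the calls depend on single samples or on scaling. Tables and figures used Python 3.11.15, pandas 2.3.3, numpy 2.4.6 and matplotlib 3.10.9. The series text calls the repeats biological; p-values measure only the spread between these samples.

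Genes with 1 symbol were named by rule: the 12 largest rises and falls, the 5 largest of each class, the 6 largest differences each way between hours or strains, and up to 4 called members of each of 23 lists (2 where none did), some of which are left out for brevity. The 12 largest also had to have all 120 min samples on 1 side of the 60 min samples, which every called gene had. Members, lists and comparisons were chosen with earlier results of these data known. A planned search of promoters for motifs was not run, because no promoter sequence was used here. Replicate numbers were not used as pairs in the main fit. Deviations of same-numbered samples at 60 and 120 min had r of 0.392, 0.0947 and 0.264. Those of differently numbered samples had r of -0.392, -0.0947 and -0.264, which mirror the former because 60 min has 2 samples. Whether the numbers mark pairs cannot be told from these values. With the replicate number as a block there were 320 calls in the second hour, among them all 135 of the main fit.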

Additional observations from a re-analysis of the deposited data

Results flagged for a closer look

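The second hour differed between wild type and a mutant, by the interaction term of the limma fit, in 38 genes for rad3 and 20 for cds1. Against rad3, the change in wild type was lower for exg1 (-2.87), SPOM_SPCC306.11 (-2.74), SPAC23A1.01c (-2.54), slp1 (-2.35), gas5 (-2.32) and spo12 (-2.23), and higher for nc-pho1 (1.78), frp1 (1.30), str3 (1.13), SPOM_SPBC1271.08C (1.13), tif303 (0.75) and sro1 (0.71). The translation factor gene tif303 fell in rad3 (-0.89 ± 0.14) and was at -0.14 ± 0.14 in wild type, and its difference lost its call in 9 of the 10 fits that left out a sample. The difference was lost in 8 of these fits for sro1, in 7 for frp1, in 6 for SPOM_SPBC1271.08C and in 3 for str3.

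Against cds1, the change in wild type was lower for SPOM_SPCC663.08C (-1.57), SPAC23A1.01c (-1.39), SPOM_SPCC18B5.02C (-1.39), osr1 (-1.34), adg1 (-1.15) and nab3 (-0.93), and higher for nc-pho1 (1.79), mik1 (1.15), lsd90 (1.10), str3 (0.99), htb1 (0.90) and cdc18 (0.86). SPOM_SPCC663.08C rose in cds1 (2.12 ± 0.15) and was at 0.55 ± 0.17 in wild type (adjusted p = 0.0721), and osr1 rose in cds1 (1.39 ± 0.13) and was at 0.05 ± 0.14 in wild type. The kinase gene mik1, an inhibitor of mitotic entry, fell in cds1 (-0.77 ± 0.13) and was at 0.38 ± 0.15 in wild type (adjusted p = 0.207). For lsd90 the mean levels at 60 and 120 min were 1.80 and 1.97 in cds1, and 0.63 and 1.89 in wild type. Its smaller change in cds1 thus started from a higher level and did not end below wild type. Of the 11 fits that left out a sample, the difference from cds1 was lost in 9 for str3, 7 for cdc18, 3 for lsd90, 2 for adg1 and 1 each for htb1 and SPOM_SPCC18B5.02C. After quantile normalization only the differences of SPAC23A1.01c and nc-pho1 were kept, and those of SPOM_SPCC663.08C, osr1, mik1 and nab3 were lost too. Those of adg1, lsd90 and cdc18 were also lost with either probe alone, and that of nab3 with the first probe.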

How the results depend on the processing

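The second hour gave 135 calls (60 rises, 75 falls) as reported, 30 (4, 26) after quantile normalization, 350 (152, 198) with all 70 arrays as samples, 228 (99, 129) with array weights, 320 (140, 180) with the replicate number as a block, 76 (29, 45) from the first probe and 55 (26, 28) from the second. The fits with 70 arrays, weights or the block kept all 135. Without the averaged 60 min sample there were 51 (22, 29), and without any other sample 78 to 133 (25 to 66, 53 to 67). In the same order, genes that continued numbered 24, then 4, 74, 65, 73, 13 and 12 (6 without the averaged sample, 9 to 25 without another). Genes that started numbered 89, then 19, 241, 145, 213, 48 and 31 (31, and 48 to 91), and genes that turned back 1, then 0, 25, 8, 16, 0 and 0 (0, and 0 to 1). Genes that levelled off numbered 318, then 663 with 70 arrays, 712 with weights, 686 with the block, 134 and 138 from single probes, 66 without the averaged sample and 137 to 334 without another. The difference between the hours passed in 23 genes, 13 after quantile normalization, 312 with 70 arrays, 100 with weights, 84 with the block, 8 without the averaged sample and 12 to 20 without another. The difference from rad3 passed in 38 genes, then 15, 127, 73 and 98 in these settings, 22 and 23 without an averaged 60 min sample of wild type or rad3, and 27 to 44 without another. That from cds1 passed in 20, then 2, 35, 46 and 37, 10 and 11 from single probes, 10 without the averaged sample and 11 to 21 without another. That from chk1 passed in 0 genes, 4 and 1 from single probes and 0 without any sample. Quantile normalization turned the change of cdt2 to -0.036; it gives arrays at both times the same spread by construction. Centring, robust eBayes, complete genes and no filter kept every count of the second hour within 1.5 times. With only wild type in the fit there were 107 calls (46 rises, 61 falls). Of the 60 rises 38 and of the 75 falls 56 were kept there. Second-hour calls lost in that fit included those of cig2, zym1, pup1, SPOM_SPBC215.11C, hmt2, rid1, spp27 and rpl3402. These calls therefore rest on the spread shared with the mutant samples.

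Among 123 results for single genes, 47 lost their call after quantile normalization (cdt2, which turned, among them), 24 with the first probe alone and 31 with the second. The 123 include results without a call in the main fit, such as the second hour of hsp104 and ams2. They are therefore not the number that could lose a call, and these counts give no share. The cause of the other changes was not tested.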
